A study of Vitis vinifera with 2 samples.

Results

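Chromosome 15 of the grapevine was examined as the chromosome with the highest CG methylation of the 19 when all reads were summed. Its members were the cytosines under sequence name 15 that both libraries covered with at least 3 reads, placed in 204 windows of 100 kb of the 4879 windows over all sequences. These windows held 4049783 of 97179016 shared cytosines, along the 20.3 Mb up to the last cytosine listed. Of these, 295493 were CG, 455491 were CHG and 3298799 were CHH (H stands for A, C or T), with each strand counted by itself. The chromosome was chosen by its CG level in these libraries, so that level and its place among chromosomes are a description and were not tested.

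Whole-genome bisulfite sequencing was carried out on the diploid 'Jingyanjing' (2X), a V. vinifera cultivar, and on its autotetraploid (4X), which colchicine had produced from tissue culture plantlets of the diploid. Bisulfite leaves methylated cytosines unconverted, so a methylation level is the percent of reads at a cytosine that kept the C. Each line gave 1 library, made from terminal buds pooled over several field-grown vines a week before the 4X buds abscised. The 2 libraries therefore differed in ploidy, in colchicine history and in the pool of vines, and these cannot be told apart. No cell type was separated, and a level is an average over all cells of the buds. The mean depth on chromosome 15 was 13.6 reads in 2X and 12.5 in 4X. With no replicates, intervals cover counting error only, and duplicate reads from PCR are not independent molecules.

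In plants, methylation in the 3 contexts is kept by different enzymes, as worked out in Arabidopsis. The methyltransferase MET1 copies CG methylation after replication. CMT3 keeps CHG methylation in a loop with a histone mark of silent chromatin, and CHH methylation is laid down anew by small-RNA-directed methylation and by CMT2. Transposons and heterochromatin usually carry CG together with CHG methylation, gene bodies often carry CG methylation alone, and active promoters are mostly unmethylated. An annotation or sequence of the build used for the files was not used here, so windows are described by their methylation and position and not by genes.

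With all shared cytosines, 2X had a CG level of 67.0% on chromosome 15, with a 95% Wilson interval from 66.96 to 67.05. The level in 4X was 67.3% (67.21 to 67.30). The other 18 chromosomes together had 58.9% and 58.7%. The next chromosomes in the order of 2X levels were chromosome 19 with 64.98% and chromosome 4 with 63.4%, and chromosome 8 was lowest with 48.2%. The CHG level of chromosome 15 was 35.3% in 2X and 34.98% in 4X, against 27.2% and 26.7% on the other chromosomes, and it was also the highest of the 19 with all cytosines. Its CHH level was 3.09% in 2X and 3.13% in 4X, which ranked 3 of 19, against 2.44% and 2.43%.

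The first place in CG was not kept when a few very deep windows were left out, a choice made after the values were seen. Across the 19 chromosomes, 1 kb windows with a mean 2X depth of at least 100 reads were few, with 8 on chromosome 15 and 27 on chromosome 9. Chromosome 9 was named for this reason, also after the values were seen. Its deep windows held 17.7% of its CG reads in 2X at a CG level of 1.25%. Without such windows chromosome 9 went from 57.5% to 69.6% and stood first, chromosome 15 had 67.4% in 2X and 67.6% in 4X and stood second, and the other 18 together had 61.8%. Chromosome 15 ranked 2 of 19 as well when cytosines above the 99th percentile of depth were left out (66.9%) and when site levels were averaged without weighting by depth (66.0%). It ranked 1 of 19 at a minimum of 5 reads (67.2%) and of 10 reads (67.7%) per library. Chromosome 15 was therefore among the 2 highest under each of these choices, but highest only in those that count the reads of deep sites in full. In CHG it likewise ranked second to chromosome 9 in the 3 choices that put it second in CG. The source of the deep windows was not tested.

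**Figure D1:**
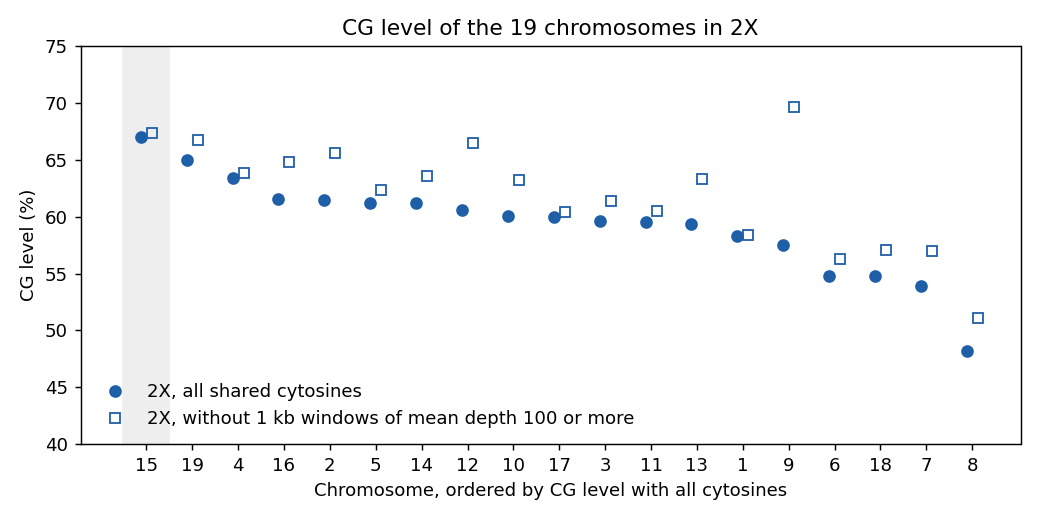
CG methylation level in 2X (percent of reads, axis from 40 to 75) of each of the 19 chromosomes, in order of the level over all shared cytosines (filled circles), with the level after leaving out 1 kb windows of mean depth 100 or more (open squares). Chromosome 15, shaded, had 67.0% and 67.4%, while chromosome 9 moved from 57.5% to 69.6%.

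The 8 deep windows of chromosome 15 were unlike each other. Their pooled CG level was 60.9% in 2X, a value carried by the first 1 kb, and deep windows of the other chromosomes had from 0.885% to 50.9%. That first 1 kb of the sequence, 1 to 1000, had 117 CG cytosines at a mean depth of 1327 reads in 2X and 1434 in 4X. Its CG level was 93.5% in 2X and 94.0% in 4X, and it alone held 3.80% of the CG reads of the chromosome in 2X, of 5.93% in all 8. The pair of windows from 9753001 to 9755000 had 143 CG cytosines at a mean depth of 540.4 in 2X and 559.1 in 4X. They were almost free of methylation, with 0.361% CG, 0.355% CHG and 0.299% CHH in 2X. The window from 3501001 to 3502000 was methylated in CHH, the context that is low almost everywhere else. There, 321 CHH cytosines had 77.4% in 2X at a mean depth of 695.3 reads and 76.8% in 4X at 812.5 reads.

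That window of 1 kb set the CHH result of the whole chromosome. With it, the 100 kb window from 3500001 to 3600000 had a CHH level of 33.9% in 2X and 38.8% in 4X, and chromosome 15 was 0.0476 points higher in 4X. Without that 100 kb window the chromosome had 2.72% in 2X and 2.67% in 4X, 0.0515 points lower in 4X. Without all deep 1 kb windows its CHH level of 2.72% was the highest of the 19 chromosomes, and the difference of -0.0513 points ranked 13 of 19. The rise in CHH over chromosome 15 thus came from the larger number of 4X reads at a site that was highly methylated in both libraries.

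The methylation of chromosome 15 was highest in its first 9 Mb and lowest from 17 to 20 Mb, with a higher level again in the short piece after that. Windows with at least 500 shared CG cytosines were kept, which left 193 of 204. Windows at or above 70% CG in 2X were called high and those under 40% low. In the first 9 Mb, 73 of 82 kept windows were high and none was low, and the window levels ran from 62.5% to 92.1% with a median of 78.5%. From 9 to 12 Mb, 15 of 30 windows were high, with a median of 70.4%. From 12 to 17 Mb, 7 of 48 windows were high and the median was 54.4%. From 17 to 20 Mb, 2 of 30 windows were high and 14 were low, with a median of 40.9%. The last piece from 20 Mb had 3 kept windows between 49.2% and 72.7%.

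CHG and CHH followed the same course. The CHG level in 2X was 52.8% in the first 9 Mb, 35.7% from 9 to 12 Mb, 20.9% from 12 to 17 Mb and 10.04% from 17 to 20 Mb. The CHH level in 2X was 4.12%, 2.76%, 2.02% and 1.48% over the same stretches. In the last piece from 20 Mb the levels were higher again, with 60.6% CG, 23.1% CHG and 2.35% CHH. The CHH level of the first 9 Mb in 2X was 3.36% without the windows from 1 and 3500001. The number of CG cytosines per kb fell less, from 16.1 in the first 9 Mb to 13.5 from 17 to 20 Mb. The mean depth in 2X was 14.0 and 12.6 reads in those stretches.

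**Figure D2:**
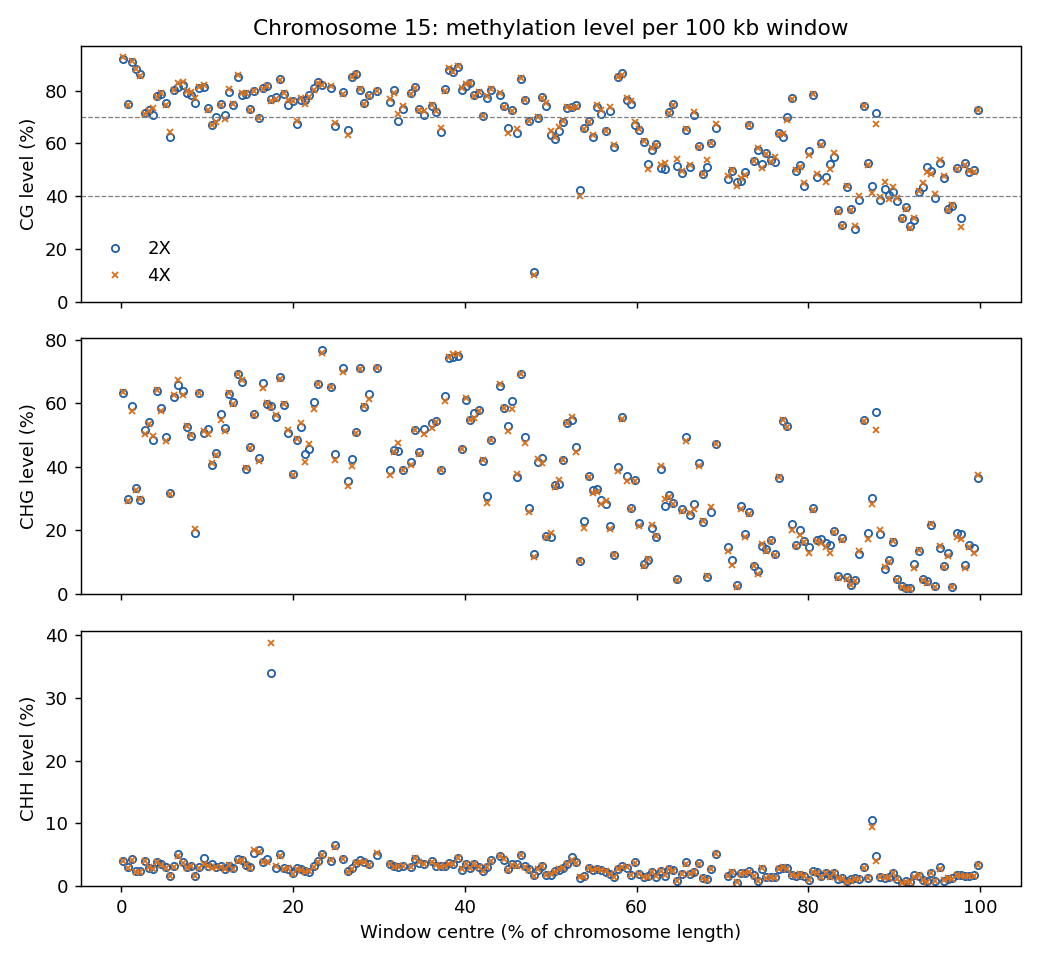
Methylation level (percent of reads) in the CG, CHG and CHH contexts for the 193 windows of 100 kb with at least 500 shared CG cytosines on chromosome 15, against the window centre as percent of chromosome length, in 2X (circles) and 4X (crosses). Dashed lines mark the 70% and 40% limits, and the CHH point at 33.9% in 2X and 38.8% in 4X is the window from 3500001.

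The gap between the sides of the chromosome was large but not particular to chromosome 15. Before its midpoint the CG level in 2X was 76.0%, and after it 55.1%, a gap of 20.9 points that ranked 3 of 19 in size, behind chromosomes 18 and 8. The stretch before the midpoint had the highest CG level of all 38 chromosome sides, and remained highest at 77.8% without deep 1 kb windows. The stretch after the midpoint ranked 26 of 38, and 31 of 38 without deep windows. The first 1 Mb, at 85.1% CG in 2X, was likewise the highest of the 38 outermost stretches of about 1 Mb. Without deep windows it was 79.8% and still the highest. The last 1 Mb had 50.8% and ranked 22 of 38. The high level of chromosome 15 thus lay on one side of the chromosome.

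High windows made up 50.8% of the kept windows on chromosome 15 (98 of 193), against 33.5% of 3941 windows on the other 18 chromosomes. This was the highest share of the 19 by a small margin, since chromosome 2 had 50.5% and chromosome 9 had 49.6%. Low windows made up 8.29% (16 of 193) against 12.5%. The median window level in 2X was 70.5%, with 70.1% on chromosome 2, 69.7% on chromosome 9 and 62.9% over the other 18. In 4X the order of these 3 turned, with 69.9% on chromosome 15, 70.1% on chromosome 2 and 70.3% on chromosome 9. The window just inside the 70% limit, from 15700001, had 70.1% and the one just outside, from 2200001, had 69.9%. The high windows formed 29 runs, and the longest, of 12 windows from 7600001 to 8800000, had 81.9% CG in 2X and 82.2% in 4X. Runs of this length were not rare, since the chromosome ranked 9 of 19 by its longest run. The second-longest run held 11 windows from position 1 to 1100000, with 84.3% and 85.1%.

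The windows with the highest CG levels lay in these runs. The window from 1 to 100000 had 92.1% and, in 4X, 92.8%, which includes the deep first 1 kb. The window from 200001 had 90.7% and 91.1%, and the window from 7900001 had 89.0% and 89.5%. The last of these was also dense in CG, with 31.0 CG cytosines per kb, the most of any kept window on the chromosome, and its CHG level was 74.9% in 2X and 75.3% in 4X. The lowest level was in the window from 9700001, with 11.2% in 2X and 10.03% in 4X, and this window holds the deep unmethylated pair described above. The next lowest windows were from 17300001, with 27.7% and 28.6%, and from 18600001, with 28.5% in 2X and a difference of -0.501 points in 4X. Both lay near the end of the chromosome, with mean 2X depths of 12.6 and 11.4 reads against 13.6 over the chromosome. Their CHG levels in 2X were 4.34% and 1.96%, so these 2 windows were poor in both contexts.

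Across the 193 windows the contexts moved together, as a description over windows that share libraries. The rank correlation (Spearman) with the CG level in 2X was 0.84 for CHG and 0.74 for CHH. On the other chromosomes the first ranged from 0.72 to 0.88. CG level and CG density had a rank correlation of 0.31, the second highest of the 19, with a median of 0.03 on the others. CG level and depth had 0.08.

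CG sites took a larger share of the cytosines on chromosome 15 than on any other chromosome. This measure was not used to choose the chromosome. CG made up 7.30% of the shared cytosines, against 6.73% on the other 18 together. The density of 14.6 CG cytosines per kb was ordinary by comparison and ranked 6 of 19. Within the chromosome, high windows had 16.5 CG cytosines per kb, middle windows 13.6 and low windows 14.2, while high windows on the other chromosomes had 14.9.

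The chromosomes differed most in their CG-rich windows. In 1 kb windows with over 20 CG cytosines, chromosome 15 had a CG level of 66.7% in 2X, the highest of the 19, against 52.8% over the other 18. Without deep 1 kb windows the levels were 67.4% and 57.9%, and chromosome 15 ranked second after chromosome 9 with 69.6%. Chromosome 19 had 66.9% and chromosome 8 had 39.7% in such windows. In 1 kb windows with under 10 CG cytosines, chromosome 15 was near the others, with 66.5% against 66.4%. Without deep windows, those rich in CG were thus about as methylated as poor ones on chromosome 15. Chromosomes 9, 12 and 19 shared this, while on the other 18 together rich windows were less methylated. With all cytosines, poor and rich windows of chromosome 15 had 66.5% and 66.7% in 2X. On chromosome 9 the level then fell from 68.8% to 49.8%, on chromosome 12 from 67.1% to 55.9% and on chromosome 19 from 67.7% to 63.1%. When the CG levels of the density classes were weighted by the class shares of the other 18 chromosomes, chromosome 15 had 67.0%, as without weighting.

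**Figure D3:**
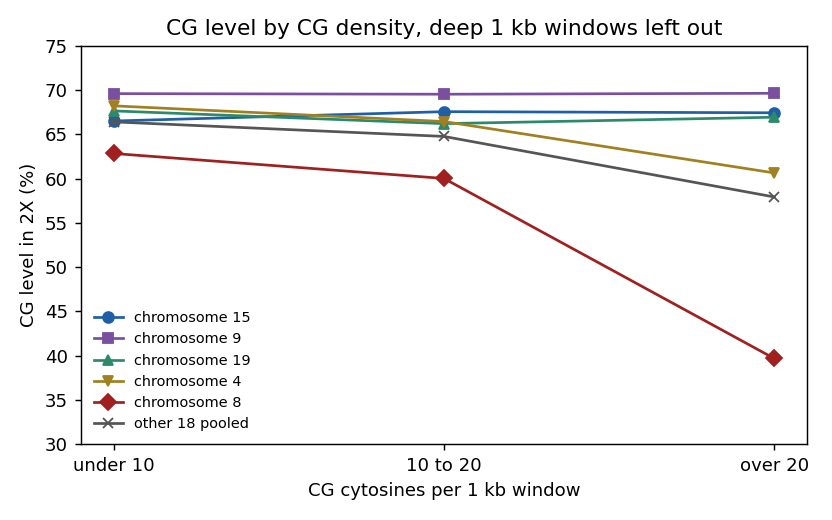
CG level in 2X (percent of reads, axis from 30 to 75) of 1 kb windows with under 10, 10 to 20 and over 20 CG cytosines, without windows of mean depth 100 or more. Chromosome 15 stayed between 66.5% and 67.6% over the 3 classes, chromosome 9 had 69.6% in the densest class, and the other 18 together fell to 57.9%.

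To see which kind of methylation filled the chromosome, 1 kb windows were sorted by their levels in both libraries. A window was unmethylated when every context was under 10%, CG only when CG was at least 50% and CHG under 10%, and CG and CHG when CG was at least 50% and CHG at least 30%. Of 20304 windows on chromosome 15, 15059 had enough cytosines. CG and CHG windows made up 53.3% on chromosome 15 against 45.0% on the other 18, second to chromosome 9 with 54.9%. Unmethylated windows made up 12.6% against 16.4%, and CG only windows 14.8% against 17.9%. The remaining 19.3% had intermediate levels. Chromosome 8, the lowest in CG, had 32.8% CG and CHG windows and 25.2% unmethylated windows.

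**Figure D4:**
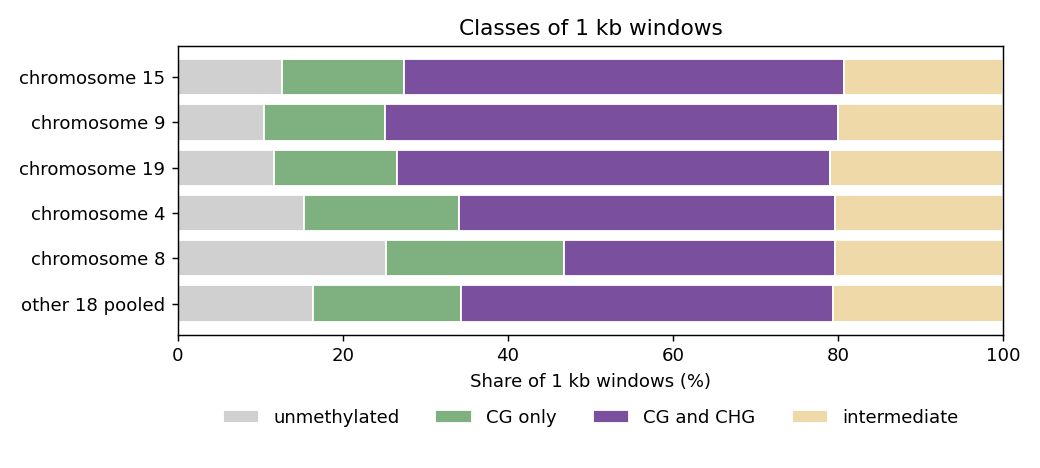
Share of 1 kb windows (percent of windows with enough cytosines) in the 4 methylation classes for chromosome 15, chromosomes 9, 19, 4 and 8, and the other 18 chromosomes together. CG and CHG windows made up 53.3% on chromosome 15, 54.9% on chromosome 9 and 32.8% on chromosome 8.

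Within a class, chromosome 15 was close to the rest. CG and CHG windows had a CG level of 86.4% in 2X and 86.7% in 4X, a CHG level of 70.9% and 71.0%, and a CHH level of 4.38% and 4.32%. CG only windows had 80.1% and 80.2% CG with 1.199% and 1.04% CHG. With the 2X class levels of chromosome 15 and the class shares of the other chromosomes, the CG level would be 59.5%, near their 58.9%. With the class levels of the others and the shares of chromosome 15, it would be 66.3%. Since the classes are cut on the CG level itself, levels within a class are held alike by construction, and these values are a description only.

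The classes followed the level of the 100 kb windows. In high 100 kb windows, 72.3% of 1 kb windows were CG and CHG and 4.77% were unmethylated, whereas in low ones 14.1% and 34.0% were. The longest unbroken run of CG and CHG windows was 167 kb, from 7839001 to 8006000, with 88.0% CG and 74.2% CHG in 2X. It lies in the longest high run. The longest CG only run was 18 kb, from 465001 to 483000, with 85.1% CG and 0.683% CHG in 2X and 85.8% and 0.942% in 4X. This run stands in the first 1 Mb, whose CHG level over all windows was 51.2% in 2X. The longest unmethylated run was 10 kb, from 17704001 to 17714000, with 1.34% CG in 2X and 0.422% in 4X.

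Single cytosines showed the same balance. Of 117250 CG cytosines that had at least 10 reads in 2X and in 4X, 61.6% had a level of at least 80% in 2X and 20.5% had at most 10%. The other chromosomes had 57.4% and 26.0%. For CHG, 22.5% had at least 80% on chromosome 15 against 18.3%. The median level of a CG cytosine was 87.0% in 2X and 87.5% in 4X.

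The dose of chromosome 15 as a whole did not stand out between the libraries. The ratio of 4X to 2X reads, relative to all 19 chromosomes, was 1.002 and ranked 8 of 19. Over the 193 windows the relative ratio ran from 0.932 to 1.103, the highest being the window from 1 with its deep first 1 kb. Its rank correlation with the 2X CG level over windows was 0.26, the second highest of the 19, with a median of 0.095 on the others. High, middle and low windows had relative ratios of 1.010, 0.988 and 1.009. On the other chromosomes these were 1.004, 0.995 and 1.008. The source of this pattern was not tested.

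Between the libraries, chromosome 15 was 0.249 percentage points higher in CG in 4X (95% half-width 0.0659, counting error only), while the other 18 together were 0.151 points lower. This was the largest rise of the 19 chromosomes, also without deep 1 kb windows (0.223 points). It ranked 4 of 19 when site levels were averaged (0.273 points), where the others rose too, by 0.236 points. On each side of the midpoint the CG rise was smaller than over the whole chromosome, 0.0696 points before it and 0.0403 points after it. Without deep windows these were 0.145 and 0.0436 points. Summed levels also depend on how the reads of each library divide between the sides. The rise of the whole chromosome is therefore not one of level alone. In CHG chromosome 15 was 0.322 points lower in 4X (half-width 0.0546), against 0.535 points lower on the other 18. Before and after the midpoint the CHG differences were -0.386 and -0.588 points. The averaged site levels gave a CHG difference of -0.000821 points, near 0. With 1 library per line these differences describe 2 libraries, and their size against the spread between replicates is unknown.

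Windows of 100 kb pointed slightly upwards in CG. In 108 of 193 windows the CG level was higher in 4X, where 48.2% of windows over all 19 chromosomes were. The share on chromosome 15 was 56.0%, close to the 54.9% on chromosome 9 and 54.8% on chromosome 2. More than 1 point higher were 41 windows (21.2%, with 14.7 percent over all chromosomes), and more than 1 point lower were 22 windows (11.4%, with 19.3 percent over all). In CHG 65 windows (33.7%) were higher in 4X, with 27.7 percent over all, and in CHH 71 windows (36.8%), with 32.0 percent over all. In CHG 15 windows were more than 1 point higher (7.77%, with 5.08 percent over all) and 53 more than 1 point lower (27.5%, with 27.3 percent over all). In CHH 1 window was more than 0.5 points higher (0.518%, with 0.387 percent over all), that from 3500001, and 4 were more than 0.5 points lower (2.07%, with 0.774 percent over all). Outside the 95% counting interval of their difference were 68 windows in CG, 42 of them higher and 26 lower in 4X. On the other chromosomes, 15.2% of windows lay outside it as higher and 19.5% as lower, against 21.8% and 13.5% on chromosome 15.

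The windows with a higher CG level in 4X were not gathered on the methylated side of the chromosome. High windows were higher in 4X in 54 of 98 cases, middle windows in 47 of 79 and low windows in 7 of 16. On the other chromosomes the shares were 56.5%, 44.2% and 39.8%, and on chromosome 15 they were 55.1%, 59.5% and 43.8%. The rank correlation between a window's CG difference and its 2X CG level was -0.01, and with its CHG difference 0.38. From 9 to 12 Mb the summed CG level was 1.11 points lower in 4X, but 0.147 points higher without the window from 9700001, in which the deep unmethylated reads took a larger share in 4X.

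**Figure D5:**
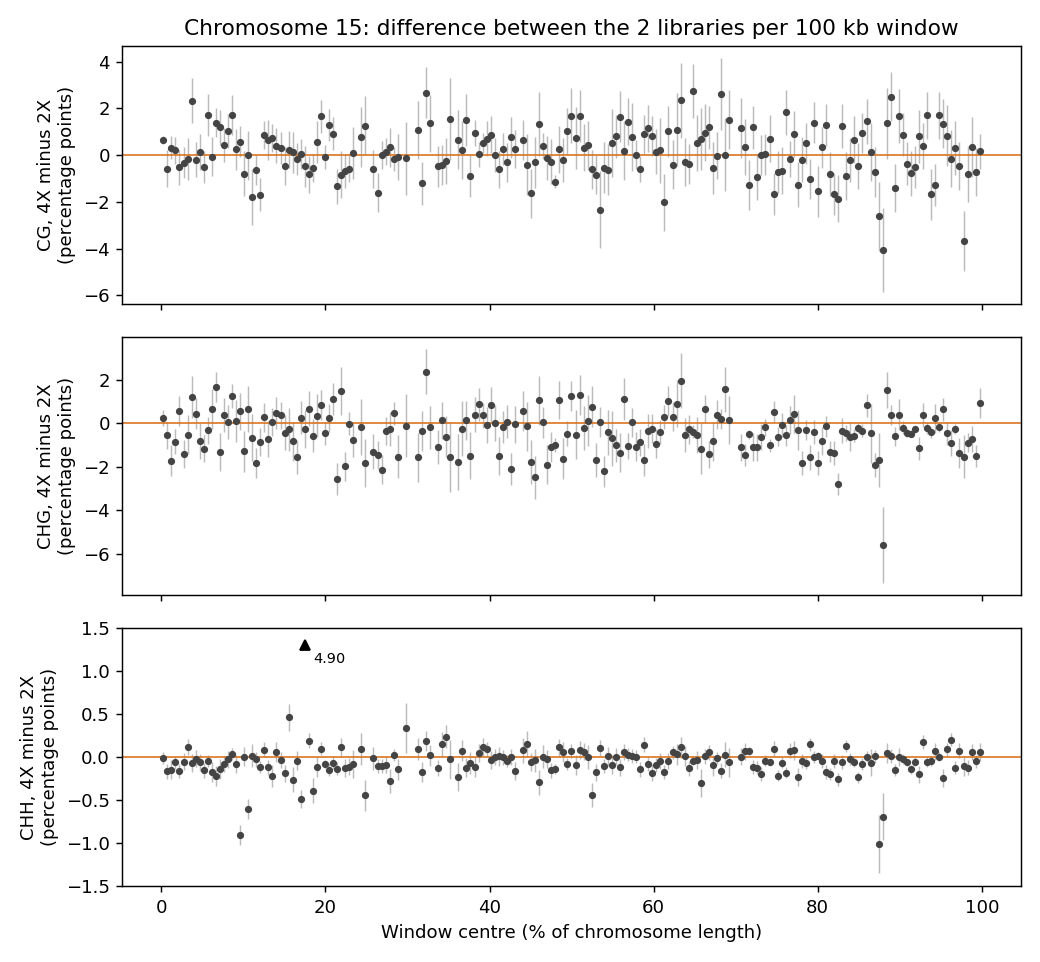
Difference between 4X and 2X (percentage points) in CG, CHG and CHH for the 193 windows of 100 kb on chromosome 15, against the window centre as percent of chromosome length, with bars for the 95% counting interval. The CHH axis ends at 1.5 points, and the triangle marks the window from 3500001 at 4.90 points. CG points lay above 0 in 108 of 193 windows.

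The largest differences upwards in CG were in the windows from 13100001, from 51.3% to 54.0%, from 6500001, from 68.3% to 71.0%, and from 13800001, from 51.0% to 53.6%. The window from 6500001 was higher in CHG too, with 45.0% and 47.3%, while that from 13100001 had 4.73% and 4.35% CHG. The largest differences downwards were near the end of the chromosome. The window from 17800001 went from 71.6% to 67.5% in CG and from 57.2% to 51.6% in CHG, the largest downwards in both contexts. It was one of the sparsest windows, with 5.32 CG cytosines per kb, and had the lowest 2X depth of the kept windows, 9.35 reads. The window from 19800001 went from 31.8% to 28.1% and that from 17700001 from 43.8% to 41.2%. The last of these also had a CHH level of 10.5% in 2X and 9.49% in 4X.

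Local differences were sought in 1 kb windows by Fisher's exact test (two-sided) on summed reads, adjusted over all windows of all sequences within a context (Benjamini-Hochberg). A window was called at an adjusted p under 0.05 and a difference of at least 20 points. The test compares these 2 libraries and treats reads of neighbouring cytosines as independent. In CG, 46 of 15746 windows on chromosome 15 were called higher in 4X (0.292%, with 0.308 percent called over all windows) and 29 lower (0.184%, with 0.156 percent over all). In CHG, 53 of 16469 were higher (0.322%, with 0.283 percent over all) and 28 lower (0.170%, with 0.223 percent over all). In CHH, 4 of 18490 were higher and 4 lower (0.0216% each, with 0.02 and 0.0232 percent over all). These shares are near the background, so chromosome 15 was not set apart by its local changes.

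The called windows were scattered singly. Of the 46 CG windows that were higher in 4X, 44 had no called neighbour. CHG was tested in 40 of the 46 and called higher in 6, where 0.283 percent of all windows were called higher in CHG. Of the 29 lower windows, 26 had no called neighbour. CHG was tested in 27 of the 29 and called lower in 4, where 0.223 percent of all windows were called lower in CHG. Neighbours and overlaps of calls are given for chromosome 15 alone. CG was called higher in 13 windows of 8133 in the high 100 kb windows, in 24 of 6071 in the middle ones and in 8 of 1244 in the low ones, shares of 0.160%, 0.395% and 0.643%. The shares called lower were 0.135%, 0.247% and 0.161%, without that order. The shares of these bands on the other chromosomes were not computed. A call needs a difference of at least 20 points, so the level of a window limits its room to be called higher or lower. Whether this bears on either set of shares was not tested, and the order is a description only.

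The called windows with the largest CG gains lay at 19545001 to 19546000 and beside it. The first went from 9.89% in 2X to 63.0% in 4X over 6 CG cytosines (91 and 100 reads, Fisher exact test, adjusted p = 2.21e-11). Its neighbour from 19544001 went from 54.5% to 100% over 5 cytosines with 22 and 23 reads (adjusted p = 0.0175, Fisher exact test). In the first window CHG was 0.0% and 19.8% and CHH 0.122% and 2.29%, and neither was called. The CHG difference, over 6 CHG cytosines, lay just under the limit of 20 points. That window also held the only CHH cytosine of the chromosome that was called by itself, at 19545736. There 0 of 25 reads were methylated in 2X and 17 of 19 in 4X. The third largest gain was from 14649001, from 7.14% to 45.3% over 21 CG cytosines (adjusted p = 1.57e-10, Fisher exact test), where CHG went from 1.0% to 33.9%.

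The 2 largest CG losses stood at the ends of the longest called run, 3 kb from 16687001 to 16690000. Its 3 windows went from 63.2% to 18.2%, from 79.2% to 47.2% and from 82.2% to 33.3% (adjusted p = 9.46e-09, 6.46e-08 and 1.05e-08, Fisher exact test). In the outer pair CHG was low in both libraries, with at most 1.72%, so these windows carried CG methylation alone. The third largest loss was from 14713001, from 81.8% to 42.9% over 6 CG cytosines (adjusted p = 2.38e-05, Fisher exact test), with CHG at 38.2% and 32.5%.

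The largest difference of all called CG and CHG windows was a gain in CHG. The window from 14836001 went from 12.9% to 82.5% over 12 CHG cytosines (170 and 126 reads, Fisher exact test, adjusted p = 6.59e-31). It had only 3 CG cytosines, with 10.1% and 30.2%. The window from 16128001 went from 20.6% to 64.7% and that from 3801001 from 15.6% to 56.7%. CG was methylated in both libraries in these windows, at 76.1% and 91.8% in the first and 56.0% and 58.4% in the second. The largest CHG losses were from 7652001, from 87.5% to 29.0% with 32 and 31 reads, from 20130001, from 43.4% to 0.0%, and from 8643001, from 67.6% to 27.0% with 34 and 37 reads. At 20130001 CG had 46.7% and 41.8%, and 0 of 72 CHG reads in 4X has a 95% Wilson upper bound of 5.07%.

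The largest called differences in CHH rested on few cytosines. The window from 17782001 went from 8.06% to 63.3% over 16 CHH cytosines with 62 and 60 reads, and the window from 9552001 from 37.4% to 0.0% over 11 cytosines with 91 and 44 reads (adjusted p = 1.01e-08 and 7.38e-06, Fisher exact test).

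Single cytosines were called by the same test without a limit on size. Of 295493 CG cytosines, 52 were higher in 4X (0.0176%, with 0.02 percent over all) and 13 lower (0.00440%, with 0.00298 percent over all). The higher ones had a median of 10.2% in 2X and 90.2% in 4X. In CHG 17 were higher (0.00373%, with 0.00429 percent over all) and 2 lower (0.000439%, with 0.0014 percent over all). In CHH 1 was higher (3.03e-05%, with 8.81e-06 percent over all) and 0 lower, where 10865 CHH cytosines had an unadjusted p under 0.05 in either direction. Gains outnumbered losses among called CG cytosines both on chromosome 15 and over all sequences. Among cytosines with at least 10 reads, 21 CG cytosines went from at most 10% to at least 80% (0.0179%) and 5 went the other way (0.00426%), near the 0.0193% and 0.00381% on the other 18 chromosomes.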

How the data were processed

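The authors mapped quality-filtered paired-end bisulfite reads to the grape genome with software spelled Bimark in their methods, and deposited 1 line per cytosine. The deposited methylation level is a percent, and the deposited counts give methylated and unmethylated reads per cytosine without normalization. For the aligner version, duplicate handling, conversion rate and build, nothing is given in the sources used here. Listed cytosines had at least 3 reads, and cytosines listed in both libraries were used. Levels were summed methylated reads over all reads. Windows started at position 1. The text names the 3 windows of 100 kb with the highest and lowest 2X CG level and the largest difference in each direction, the longest high run, the 3 called 1 kb windows with the largest difference per direction in CG and CHG and 1 in CHH, and chromosomes 8, 19 and 4. Chromosomes 2, 9 and 12, the deep windows, the stretches along the chromosome, the called neighbour windows and the run records were added after their values were seen. The chromosome and the lists were chosen with earlier results of these data known. Alternatives changed the coverage minimum, depth limit, averaging, window size and limits. The window tests were tried on simulated data with independent reads, which cannot show their error rate where reads of neighbouring cytosines are not independent. Software was matplotlib 3.10.9 for plots, numba 0.67.0 and scipy 1.17.1 for tests, and pandas 2.3.3 with numpy 2.4.6 in Python 3.11.15.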

Additional observations from a re-analysis of the deposited data

Results flagged for a closer look

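Cytosines of chromosome 15 that were listed in 1 library only entered no comparison, and they were methylated too. Those listed only in 2X had 63.6% in CG, 39.8% in CHG and 3.23% in CHH, at a mean depth of 4.79 to 4.82 reads. Those listed only in 4X had 60.3% in CG, 36.6% in CHG and 3.02% in CHH, at 4.60 to 4.67 reads. In CG both values were under the level of the shared cytosines, and in CHG both were over it.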

How the results depend on the processing

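No paired analysis was possible because 2X and 4X were 1 library each, and so no replicate could be left out. The CG difference stayed positive and the CHG difference negative in every alternative tried, while the CHH difference reversed in 5. With at least 5 reads in both libraries, the 2X levels were 67.2% CG, 35.1% CHG and 3.10% CHH, and the differences 0.350, -0.231 and 0.0579 points. With at least 10 reads the levels were 67.7%, 35.1% and 3.20%, the differences 0.444, -0.0928 and 0.102 points, CG only windows 16.5% and CG cytosines 5.77 per kb. With all cytosines listed in each library the levels were 66.8%, 35.5% and 3.09%, and the differences 0.106, -0.456 and 0.0366 points. Averaged site levels gave 66.0%, 34.95% and 2.77%, with a CHG difference of -0.000821 and a CHH difference of -0.0382. When cytosines above the 99th percentile of depth were dropped, these levels were 66.9%, 34.4% and 2.69%, and CHH differed by -0.0506. Of the alternatives added after the data were seen, leaving out the 100 kb windows from 1, 3500001 and 9700001 gave 67.1%, 34.9% and 2.71% with a CHH difference of -0.0518. Leaving out only that from 3500001 gave 67.0%, 35.2% and 2.72% with -0.0515. Without 1 kb windows of mean depth 100 or more the values were 67.4%, 35.2% and 2.72% with -0.0513.

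The share of high windows was 34.7% at a limit of 75% and 59.1% at 65%. Unmethylated windows made up 8.56% at 2 kb and 10.4% under a limit of 5%. CG only windows made up 13.0% at 2 kb and 13.3% with CHG under 5%, and CG and CHG windows 55.2% with CHG of at least 20%. Counts of called windows moved most. These counts and those of single cytosines are given without the shares over all sequences, so they describe chromosome 15 alone. Higher and lower in 4X, a limit of 10 points gave 129 and 102 windows in CG, 150 and 167 in CHG and 17 and 24 in CHH. In CHG the lower windows then outnumbered the higher, an order that was not set against the other chromosomes. A limit of 30 points gave 14 and 9 in CG, 15 and 9 in CHG and 3 and 1 in CHH. Windows of 500 bp gave 76 and 50, 89 and 77, and 11 and 12. With at least 10 reads, 8 CG windows were lower and 0 CHH windows higher, and among single cytosines 21 CG and 5 CHG were lower and 2 CHH higher. The cause of these changes was not tested, apart from the numbers of cytosines and windows that each alternative leaves.

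At these depths, single cytosines were called only at very large differences. Windows with few cytosines, such as those from 17782001 and 9552001 named for CHH, carry wide counting intervals. Other CHH calls had more, such as that from 19517001 with 75 CHH cytosines and 354 and 436 reads. Reads of neighbouring cytosines are not independent, so adjusted p-values are too small. Without an annotation of the build, genes and transposons on chromosome 15 were not analysed here.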
